A study of Agaricus bisporus with 16 samples.

Results

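The transcripts described here code for 8 subunits of complex I, the NADH:ubiquinone oxidoreductase of the mitochondrial respiratory chain, in the button mushroom Agaricus bisporus. The members were taken by the gene identifiers of the files and are called by their symbols in the RefSeq reference table: gene 188636's is NdufS8, 134160's NdufV2, 195692's NdufA1, 138930's NdufA2, 139455's NdufA13, 133109's Ndufab1, 139429's NdufB9 and 133027's NdufS6. They are 8 of the 9520 genes listed in all 16 tables, and 8 of the 24 genes whose symbol in the reference table is that of a complex I subunit. Compost colonised by mycelium of the strains 219 30P, 245 AMA-7, 065 BP-8 and A15 was sampled at the first flush, on day 39 from the addition of spawn, and at the pinning stage, on day 27. A15 is the commercially cultivated strain. There are 2 libraries, from duplicate compost samples, for every combination of strain and day, which makes 8 groups. All strains grew on the same kind of compost, made from wheat straw with horse and chicken manure and covered with a casing layer. The series set out to compare gene expression between strains and between stages.

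Complex I takes electrons from NADH, passes them along a chain of iron-sulfur clusters to ubiquinone, and pumps protons across the inner mitochondrial membrane. Its core subunits, which are shared with bacteria, carry the cofactors and the proton channels, and accessory subunits surround them and serve in assembly and stability. NdufS8 and NdufV2 are core subunits of the peripheral arm, and both hold iron-sulfur clusters, NdufV2 in the module that oxidises NADH. The other 6 members are accessory. NdufA1, NdufA13 and NdufB9 belong to the membrane arm, and NdufA2 and NdufS6 to the peripheral arm. Ndufab1 is the mitochondrial acyl carrier protein, which also serves mitochondrial fatty acid synthesis. These roles are known mainly from mammals and from other fungi.

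The files hold no read counts but a single normalised value for a gene in a library, taken here as FPKM, which counts fragments relative to transcript length and to the mapped fragments of the library. The values sum to 832823 to 913010 FPKM per library, and the steps between low values put the worth of 1 read at about 0.116 to 0.133 FPKM where the gene is 1 kilobase long. By the gene lengths, which include introns, a member had at most 91 reads (NdufA13) to 2469 reads (Ndufab1) in a library. Differences below are of log2(FPKM + 1) with the standard error (SE) from limma, fitted to 8818 genes with 2 libraries per group. Benjamini-Hochberg adjustment ran over those 8818 genes, and an adjusted p under 0.05 counted as passing. Since the labels do not tie duplicates to different crates, p-values cover the spread between these samples alone, and that spread may be technical. The A15 tables list 9520 genes and the others 10438, so that strain and table cannot be told apart in comparisons with A15. The duplicates of 065 BP-8 on day 27 stood furthest apart, with 12.49% of genes differing more than 1.5-fold, against 3.18% to 6.18% in the other groups. In bulk samples a change in the mix of cells and a change of an RNA within cells cannot be told apart. The values are relative to the mapped fragments of a library, so they do not show the amount of living mycelium. The lectin gene abl was the 1 gene of the fruiting body marker list that has a symbol in the reference table. It averaged 3.24, 39.8, 235 and 163 FPKM on day 39 in 219 30P, 245 AMA-7, 065 BP-8 and A15, against 4.04, 21.7, 6.72 and 26.8 FPKM on day 27, and its part in the results was not tested.

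Within every library Ndufab1 had the highest level of the 8 members and NdufA13 the lowest. Ndufab1 averaged 307 FPKM over the 16 libraries, above 95.2% of the genes tested. The core members NdufS8 and NdufV2 averaged 95.2 and 94.9 FPKM. They were followed by NdufS6 with 72.4, NdufA1 with 66.1, NdufB9 with 56.2, NdufA2 with 51.4 and NdufA13 with 33.6 FPKM. NdufS8 was the most even, with a 1.59-fold range between its lowest and its highest library, and NdufA13 the least even, with a 3.0-fold range.

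**Figure D1:**
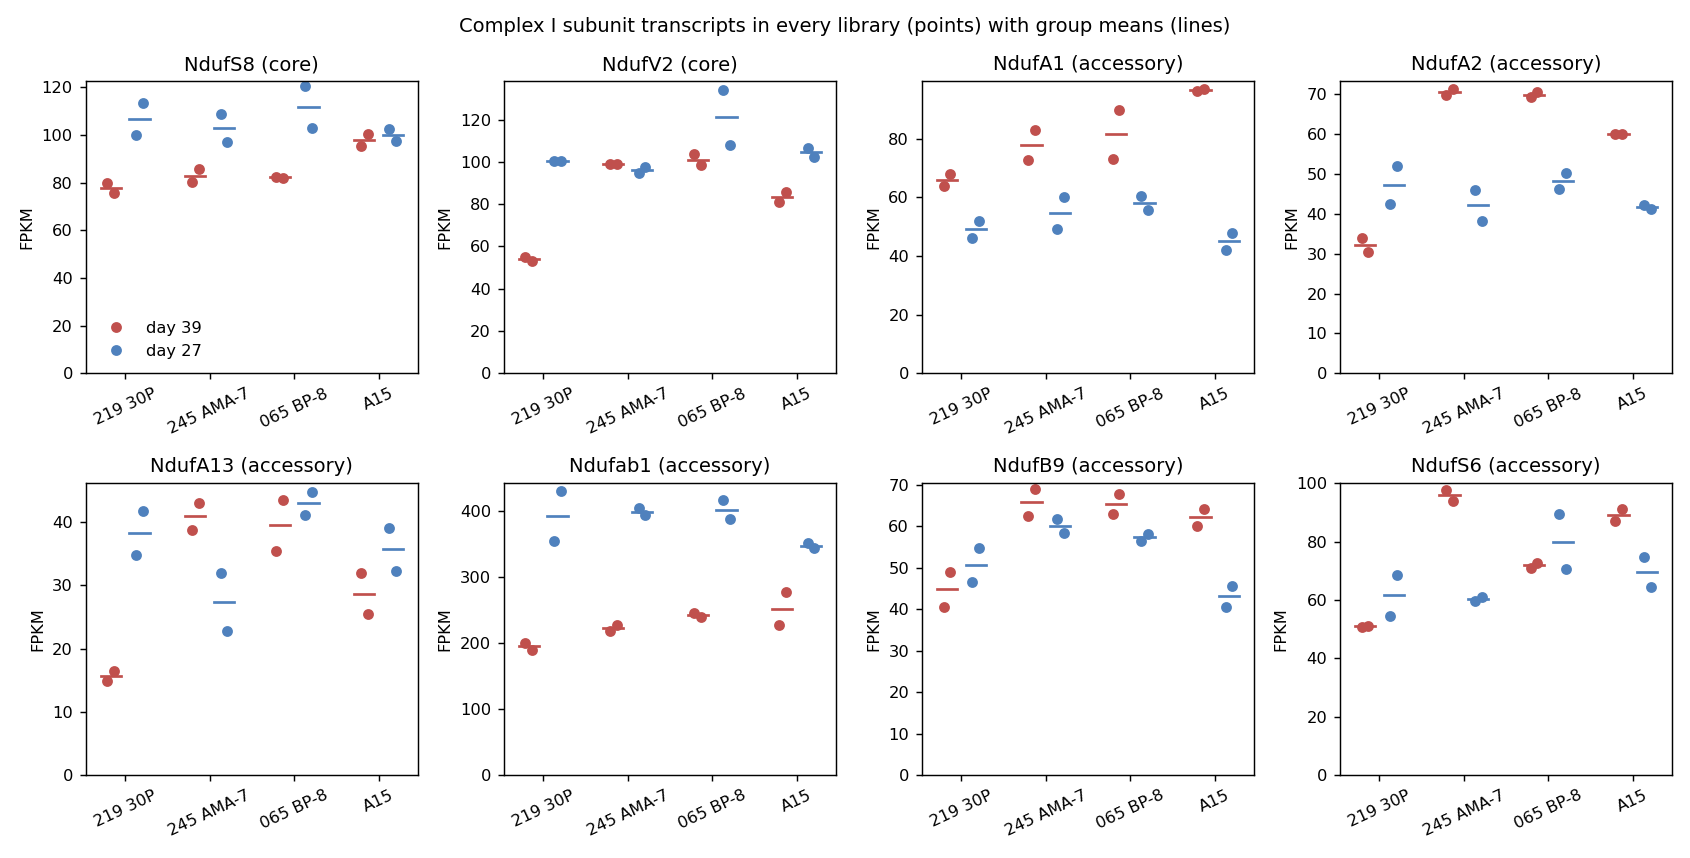
FPKM of the 8 complex I members in each library (points) and the mean of the 2 libraries (lines), by strain and day. NdufA13 lay between 14.9 and 16.5 FPKM in 219 30P on day 39, below every other library, and NdufA1 lay higher on day 39 than on day 27 in all 4 strains.

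The comparison of day 39 with day 27 asked what changed between pinning and the first flush. Both core members fell in the mean of the 4 strains, NdufS8 by 0.30 ± 0.05 on the log2 scale (limma, adjusted p = 9.5e-05) and NdufV2 by 0.35 ± 0.05 (adjusted p = 1.78e-05). Of the 6 accessory members, NdufA1, NdufA2, NdufB9 and NdufS6 rose and NdufA13 and Ndufab1 fell. All 8 members thus passed the test, as did 77.5% of the genes tested. The mean change of NdufA13 (-0.27 ± 0.09) combined a fall in 219 30P (-1.23), a rise in 245 AMA-7 (0.58) and changes in A15 and 065 BP-8 that did not pass. Of all genes 44.9% rose and 32.5% fell, and with quantile normalization 36.7% rose and 40.6% fell. The median change of the 8 members was -0.06, against 0.11 for all genes tested. The rises of NdufB9 (0.17 ± 0.06, adjusted p = 0.0185) and NdufS6 (0.15 ± 0.06, adjusted p = 0.0393) did not pass with median-ratio scaling of the libraries, which gave 0.06 (adjusted p = 0.341) and 0.05 (adjusted p = 0.457). Without the A15 libraries they were 0.05 (adjusted p = 0.537) and 0.09 (adjusted p = 0.309). The NdufB9 call was also lost without replicate 1 of 219 30P on day 27 (0.14, adjusted p = 0.0509). Leaving out any of 12 single libraries ended the NdufS6 call, with changes of 0.11 to 0.16.

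Among the core members, NdufS8 fell in 3 strains. On day 39 it stood at 79.8 and 75.5 FPKM in 219 30P, at 80.1 and 85.8 FPKM in 245 AMA-7 and at 82.5 and 81.9 FPKM in 065 BP-8. The same strains had 99.99 and 113 FPKM, 109 and 97.1 FPKM, and 120.3 and 103 FPKM on day 27. The libraries of the 2 days did not overlap in these strains, and the changes were -0.45 ± 0.10 (adjusted p = 0.00163), -0.31 ± 0.10 (adjusted p = 0.0166) and -0.43 ± 0.10 (adjusted p = 0.00218). In A15, 95.3 and 100.4 FPKM on day 39 overlapped with 102 and 97.4 FPKM on day 27 (adjusted p = 0.816), although median-ratio scaling gave -0.28 there (adjusted p = 0.0273). The call in 245 AMA-7 was lost without replicate 1 of day 27 (-0.23, adjusted p = 0.134) or of day 39 (-0.26, adjusted p = 0.107), and median-ratio scaling gave -0.48.

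NdufV2 changed most in 219 30P, where it stood at 54.9 and 53.3 FPKM on day 39, against 100.55 and 100.2 FPKM on day 27. This was a 1.84-fold fall (-0.88 ± 0.09, adjusted p = 6.27e-06). A15 had 81 and 85.65 FPKM on day 39, against 107 and 102 FPKM on day 27 (-0.32 ± 0.09, adjusted p = 0.0101). The fall in A15 was -0.58 with median-ratio scaling, and it did not pass without replicate 1 of day 27 (-0.29, adjusted p = 0.0556) or of day 39 (-0.28, adjusted p = 0.06). In 065 BP-8 the gene had 104 and 98.4 FPKM on day 39, against 134 and 108 FPKM on day 27 (-0.25 ± 0.09, adjusted p = 0.036). That fall rested on the high replicate 1 of day 27: it was -0.09 without it (adjusted p = 0.373) and -0.41 without replicate 2 of that day. It was also lost without either library of day 39 (-0.29 and -0.21, adjusted p = 0.0637 and 0.159). In 245 AMA-7, 98.8 and 99.05 FPKM on day 39 stood beside 94.6 and 97.5 FPKM on day 27, a difference of 0.04 ± 0.09 that did not pass (adjusted p = 0.714).

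Among the accessory members of the membrane arm, NdufA1, a small subunit with a single membrane-spanning helix, rose in all 4 strains. In A15 it stood at 96.2 and 96.9 FPKM on day 39, against 42.2 and 47.7 FPKM on day 27. In 219 30P it had 63.9 and 68.0 FPKM on day 39, against 46.3 and 51.95 FPKM on day 27. No library of day 39 was as low as any of day 27 in either strain. The rise was 2.13-fold in A15 (1.09 ± 0.13, adjusted p = 1.27e-05) and 1.34-fold in 219 30P (0.42 ± 0.13, adjusted p = 0.0116). In 245 AMA-7 the levels were 72.7 and 82.8 FPKM on day 39, against 49.3 and 60.1 FPKM on day 27 (0.50 ± 0.13, adjusted p = 0.00399). In 065 BP-8 they were 73.1 and 89.8 FPKM on day 39, against 60.5 and 55.8 FPKM on day 27 (0.47 ± 0.13, adjusted p = 0.00588). The days did not overlap in these strains either. Outside A15 the calls depended on single libraries. The rise in 219 30P did not pass without replicate 1 of day 27 (0.34, adjusted p = 0.0887) or replicate 2 of day 39 (0.38, adjusted p = 0.0674). In 245 AMA-7 it did not pass without replicate 1 of day 27 (0.36, adjusted p = 0.0527), and median-ratio scaling gave 0.33 (adjusted p = 0.0447). In 065 BP-8 the call was lost without replicate 2 of day 39 (0.33, adjusted p = 0.0756).

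NdufA13, whose mammalian counterpart is also known as GRIM-19, moved in opposite directions in 219 30P and 245 AMA-7. In 219 30P it stood at 14.9 and 16.5 FPKM on day 39, against 34.8 and 41.75 FPKM on day 27, a 2.34-fold fall (-1.23 ± 0.18, adjusted p = 6.11e-05). In 245 AMA-7 it stood at 38.7 and 43.1 FPKM on day 39, against 31.9 and 22.7 FPKM on day 27 (0.58 ± 0.18, adjusted p = 0.0116). The days did not overlap in either strain, and the day effect of 245 AMA-7 exceeded that of 219 30P by 1.81 ± 0.25 (adjusted p = 0.000131). The rise in 245 AMA-7 was less secure than the fall in 219 30P. It did not pass without replicate 2 of day 27 (0.34, adjusted p = 0.142), without replicate 2 of day 39 (0.51, adjusted p = 0.0746) or with median-ratio scaling (0.41, adjusted p = 0.0588). In 065 BP-8, 35.45 and 43.5 FPKM on day 39 overlapped with 41.15 and 44.7 FPKM on day 27 (-0.12 ± 0.18, adjusted p = 0.559). In A15 the gene had 31.9 and 25.5 FPKM on day 39, against 39.1 and 32.2 FPKM on day 27. The A15 libraries narrowly did not overlap, and the difference of -0.31 ± 0.18 did not pass (adjusted p = 0.146), whereas it passed with median-ratio scaling (-0.55, adjusted p = 0.0152) and after quantile normalization (-0.58, adjusted p = 0.0105).

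NdufB9, a protein of the LYR family that binds the acyl carrier protein, rose in A15 and passed in no other strain. It had 60.2 and 64.3 FPKM in A15 on day 39, against 40.5 and 45.7 FPKM on day 27 (0.52 ± 0.11, adjusted p = 0.00172). With median-ratio scaling the change was 0.27 (adjusted p = 0.0664) and with quantile normalization 0.34 (adjusted p = 0.018). The other strains had 40.5 to 69.1 FPKM on day 39 and 46.5 to 61.9 FPKM on day 27. Their changes were -0.17 ± 0.11 in 219 30P, 0.13 ± 0.11 in 245 AMA-7 and 0.19 ± 0.11 in 065 BP-8 (adjusted p = 0.206, 0.348 and 0.173).

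Of the accessory members of the peripheral arm, NdufA2, a subunit with a thioredoxin-like fold, rose in 3 strains and fell in the fourth. It stood at 69.7 and 71.1 FPKM on day 39 in 245 AMA-7, against 45.9 and 38.2 FPKM on day 27 (0.74 ± 0.11, adjusted p = 0.000113). In 065 BP-8 it had 69.3 and 70.3 FPKM on day 39, against 46.2 and 50.2 FPKM on day 27 (0.53 ± 0.11, adjusted p = 0.00135). In A15 it had 59.9 and 59.8 FPKM on day 39, against 42.3 and 41.2 FPKM on day 27 (0.51 ± 0.11, adjusted p = 0.00175). The exception was 219 30P, with 33.9 and 30.4 FPKM on day 39, against 42.45 and 51.9 FPKM on day 27 (-0.54 ± 0.11, adjusted p = 0.00121). The days did not overlap in any strain, and day 39 was the higher day everywhere but in 219 30P. The rise in A15 was 0.26 with median-ratio scaling and did not pass (adjusted p = 0.0708), and it was 0.32 with quantile normalization (adjusted p = 0.0321).

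NdufS6, which binds zinc and is needed for assembly of the NADH-oxidising module in other fungi, rose in 245 AMA-7 and A15. It stood at 97.9 and 94.0 FPKM on day 39 in 245 AMA-7, against 59.8 and 61.0 FPKM on day 27 (0.66 ± 0.13, adjusted p = 0.000601). In A15 it had 87.3 and 91.1 FPKM on day 39, against 74.6 and 64.35 FPKM on day 27 (0.36 ± 0.13, adjusted p = 0.0246). The A15 rise did not pass with median-ratio scaling (0.11, adjusted p = 0.471) or quantile normalization (0.24, adjusted p = 0.119). It was also lost without replicate 2 of day 27 (0.25, adjusted p = 0.172), replicate 1 of day 39 (0.39, adjusted p = 0.0555) or replicate 2 of day 39 (0.33, adjusted p = 0.0993). In 219 30P it had 50.7 and 51.2 FPKM on day 39, against 54.7 and 68.7 FPKM on day 27 (-0.26 ± 0.13, adjusted p = 0.0876), which passed without replicate 1 of day 27 (-0.42, adjusted p = 0.0218) or without either library of 065 BP-8 on day 27 (adjusted p = 0.0478 and 0.0476). In 065 BP-8, 71.1 and 72.7 FPKM on day 39 lay within the span of 89.4 and 70.55 FPKM on day 27 (-0.14 ± 0.13, adjusted p = 0.342).

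Ndufab1, the acyl carrier protein, fell in every strain. It stood at 200.5 and 189.7 FPKM on day 39 in 219 30P, against 355 and 431 FPKM on day 27 (-1.0 ± 0.11, adjusted p = 6.25e-06). In 245 AMA-7 it had 218 and 228 FPKM on day 39, against 405 and 394 FPKM on day 27 (-0.84 ± 0.11, adjusted p = 2.86e-05). In 065 BP-8 it had 246 and 240.2 FPKM on day 39, against 416 and 388 FPKM on day 27 (-0.72 ± 0.11, adjusted p = 8.9e-05). All libraries of day 39 stood below all libraries of day 27 in these strains. A15 showed the smallest fall, with 227 and 277 FPKM on day 39, against 352 and 345 FPKM on day 27 (-0.47 ± 0.11, adjusted p = 0.00234, and -0.72 with median-ratio scaling). Its LYR partner NdufB9 had a lower level than Ndufab1 in each library and did not fall beyond the test in any strain.

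**Figure D2:**
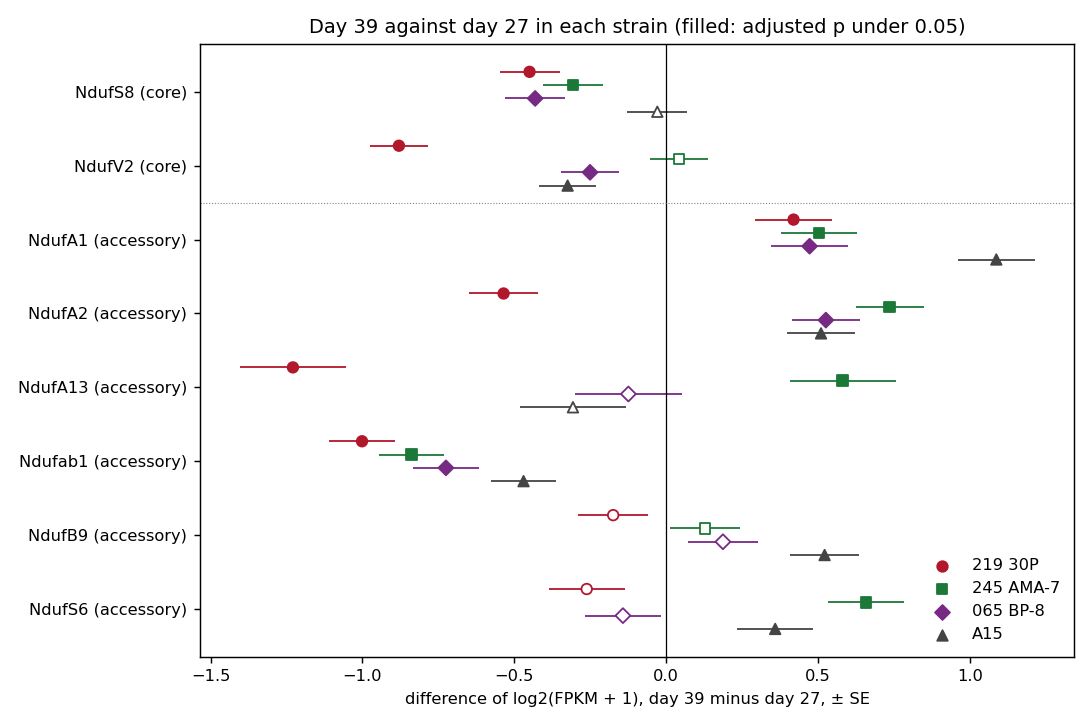
Difference of log2(FPKM + 1) between day 39 and day 27 (x axis, with SE) for each member (y axis) in the 4 strains. Filled symbols passed at an adjusted p under 0.05. Ndufab1 lies left of 0 and NdufA1 right of 0 in all strains, and the symbol of 219 30P lies furthest left for each of the 8 members.

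By strain, 1 member rose and 5 fell in 219 30P, where 27.6% of the genes tested rose and 34.8% fell. In 245 AMA-7, 4 rose and 2 fell, against 37.8% and 25.3% of all genes. In 065 BP-8, 2 rose and 3 fell, against 34.5% and 28.1%. In A15, 4 rose and 2 fell, against 41.3% and 21.0%. The members' median change was -0.49 in 219 30P, 0.32 in 245 AMA-7, -0.13 in 065 BP-8 and 0.17 in A15, where all genes had medians of -0.07, 0.16, 0.07 and 0.24. Median-ratio scaling, which moved the median of all genes to 0.00 in A15, left 1 member risen and 4 fallen there and turned the members' median in A15 to -0.09. Of all genes, 30.1% then rose and 31.1% fell in A15. With that scaling 3 members rose and 2 fell in 245 AMA-7, against 29.9% and 31.7% of all genes.

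Accessory members stood higher relative to core members on day 39 than on day 27, a description for which no test was made. The mean log2(FPKM + 1) of the 6 accessory members minus that of the 2 core members lay between -0.43 and -0.11 in the 8 libraries of day 39, against -0.68 to -0.45 in the 8 libraries of day 27. The ranges of the 2 days did not overlap. Between the days the difference changed by 0.20 in 219 30P, 0.43 in 245 AMA-7, 0.37 in 065 BP-8 and 0.46 in A15, and by 0.37 in the mean of the strains. The SD of this difference between duplicates was 0.09. Accessory members changed by 0.04 and core members by -0.33 on average. The accessory members were far from uniform, since Ndufab1 fell more than either core member. Without Ndufab1 the change in the mean of the strains was 0.52. Ndufab1 had the largest fall of the accessory members, so leaving it out could only raise the value. NdufA1, which rose most (0.62), was not left out.

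**Figure D3:**
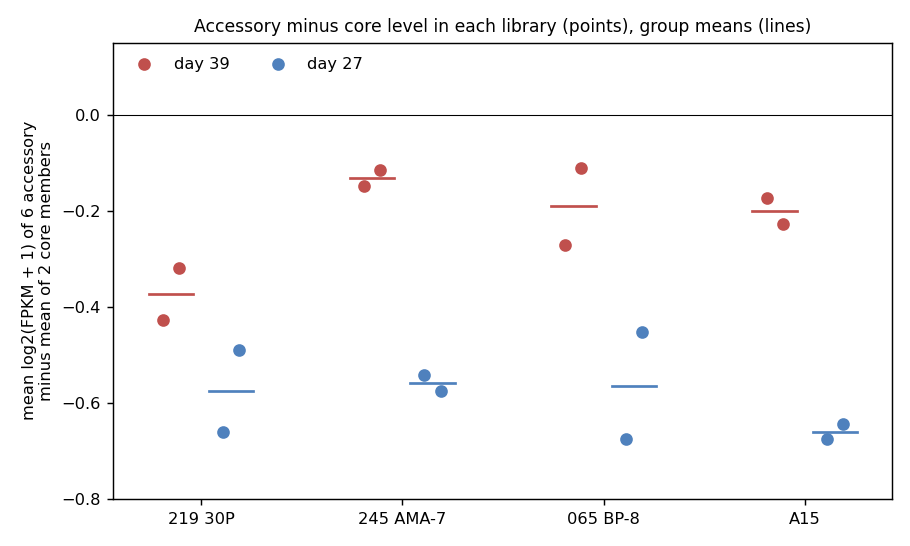
Mean log2(FPKM + 1) of the 6 accessory members minus that of the 2 core members (y axis) in each library (points), with the mean of the 2 libraries (lines), by strain and day. The libraries of day 39 lie between -0.43 and -0.11 and those of day 27 between -0.68 and -0.45.

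Among the other 16 genes with a complex I symbol the 2 classes had similar medians. In the mean of the strains the 4 other core genes had a median change of -0.18 and the 12 other accessory genes one of -0.19, and all genes tested one of 0.11. Of these core genes NdufS7 (-0.37 ± 0.06), NdufS3 (-0.19 ± 0.04) and NdufV1 (-0.17 ± 0.05) fell, and NdufS1 changed by -0.10 ± 0.04 (adjusted p = 0.0548). All 6 core genes with a symbol therefore had a negative estimate in the mean of the strains, but not in each strain. Of the 4 other core genes, 4 fell in 219 30P, 3 in 065 BP-8 and 1 in A15, where 34.8%, 28.1% and 21.0% of all genes fell. By contrast, 0 of the 4 fell in 245 AMA-7, where 25.3% of all genes fell and 37.8% rose. NdufV1 (0.40 ± 0.09) and NdufS1 (0.29 ± 0.09) rose there (limma, adjusted p = 0.00225 and 0.0106). Of the 12 accessory genes 7 fell and 1 rose, NdufB8 (0.14 ± 0.06, adjusted p = 0.0407). The largest fall among them was in NdufA4 (-0.41 ± 0.05), whose mammalian counterpart has been assigned to complex IV. NdufA1, with 0.62 ± 0.06, and Ndufab1, with -0.76 ± 0.05, were the extremes of the 24 genes. In the other complexes all 5 genes each of complex II and complex IV fell in the mean of the strains, as did 4 of 6 of complex III and 9 of 10 of ATP synthase. The medians were -0.38, -0.61, -0.47 and -0.51, and the single strains differed. Of complex II, 5 genes fell in 219 30P, 4 in 065 BP-8 and 1 in A15, and in 245 AMA-7 1 fell and 1 rose. Of complex III, 5 fell in 219 30P, 4 in 065 BP-8 and 3 each in A15 and 245 AMA-7, where 1 and 2 rose. In complex IV and ATP synthase 0 genes rose in any strain.

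**Figure D4:**
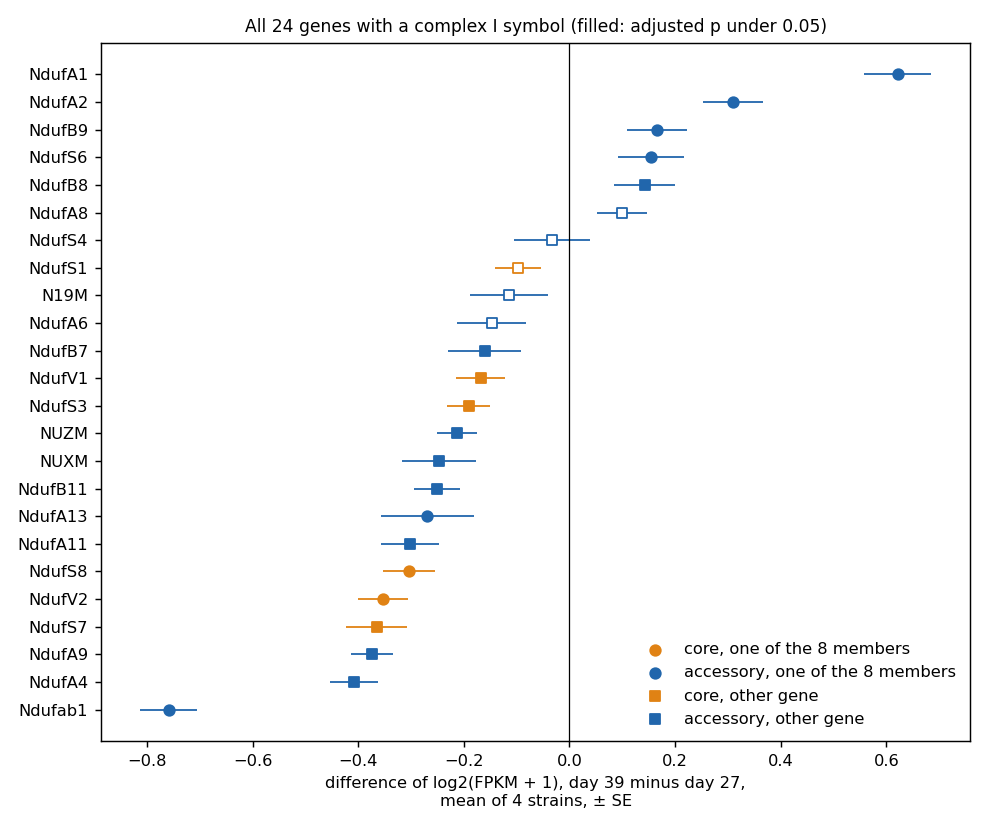
Difference of log2(FPKM + 1) between day 39 and day 27 in the mean of the 4 strains (x axis, with SE) for all 24 genes with a complex I symbol, ordered by size. Circles are the 8 members and squares the other 16 genes; filled symbols passed at an adjusted p under 0.05. The members include both extremes, NdufA1 at 0.62 and Ndufab1 at -0.76.

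The study set the other strains against A15, the strain grown commercially. On day 39 all 8 members were lower in 219 30P than in A15, where 40.3% of the genes tested were lower and 19.4% higher. The differences ran from -0.88 ± 0.11 for NdufA2 (adjusted p = 3.61e-05) to -0.33 ± 0.10 for NdufS8 (adjusted p = 0.0122), with a median of -0.58, against -0.22 for all genes. NdufA13 was lower by a log2 difference of -0.82 ± 0.18, NdufS6 by -0.80 ± 0.13, NdufV2 by -0.61 ± 0.09, NdufA1 by -0.54 ± 0.13, NdufB9 by -0.47 ± 0.11 and Ndufab1 by -0.36 ± 0.11. The libraries of the 2 strains did not overlap for any member, and the share of all genes without overlap was not counted. With median-ratio scaling, under which 28.2% of all genes were higher and 29.2% lower, 5 members passed, and NdufS8 (-0.12), Ndufab1 (-0.15) and NdufB9 (-0.26) did not (adjusted p = 0.317, 0.269 and 0.0761). That scaling gave -0.41 for NdufV2 and -0.33 for NdufA1, and quantile normalization gave -0.19 for NdufS8 (adjusted p = 0.107). The NdufS8 and Ndufab1 calls were also lost without replicate 2 of 219 30P (-0.29 and -0.32, adjusted p = 0.073 and 0.0702) or of A15 (-0.29 and -0.22, adjusted p = 0.0663 and 0.129) on that day.

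On day 39 the other strains differed from A15 in few members, with the same A15 libraries as base. In 245 AMA-7, NdufA13 (0.50 ± 0.18, adjusted p = 0.0287) and NdufV2 (0.25 ± 0.09, adjusted p = 0.0451) were higher, 2 of 8, against 24.4% of genes higher and 29.3% lower. In 065 BP-8, NdufV2 was higher (0.28 ± 0.09, adjusted p = 0.0316), 1 of 8, against 17.8% higher and 28.4% lower. With median-ratio scaling 3 members were higher in 065 BP-8 (NdufV2, NdufA2 and NdufA13), against 21.9% higher and 22.9% lower. With each library rescaled to the same sum none of them was higher, NdufV2 standing at 0.25 (limma, adjusted p = 0.0836), and NdufS8 passed as lower (-0.28, adjusted p = 0.0495). The calls as deposited depended on single libraries. The NdufA13 call was lost without replicate 2 of A15 (0.35) or without either library of 245 AMA-7 (0.58 and 0.43) on day 39. The NdufV2 call in 245 AMA-7 was lost when any of 14 of the 16 libraries was left out (adjusted p = 0.0519 to 0.172), with values of 0.21 to 0.29 without a library of the groups compared. The NdufV2 call in 065 BP-8 was lost without any of the 4 libraries of the groups compared (0.24 to 0.31).

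On day 27 no member differed between 219 30P and A15 in limma, at an adjusted or an unadjusted p under 0.05 (smallest unadjusted p = 0.0735), where 41.6% of the genes tested were called. The differences lay between -0.17 and 0.22. In 245 AMA-7, NdufB9 was higher than in A15 (0.47 ± 0.11, adjusted p = 0.00624), 1 of 8, against 22.3% of genes higher and 17.4% lower. In 065 BP-8, NdufB9 (0.41 ± 0.11, adjusted p = 0.0132) and NdufA1 (0.37 ± 0.13, adjusted p = 0.0342) were higher, 2 of 8, against 26.0% higher and 17.1% lower. NdufB9 stood at 61.9 and 58.5 FPKM in 245 AMA-7 and at 56.5 and 58.2 FPKM in 065 BP-8, against 40.5 and 45.7 FPKM in A15, and the libraries of both strains lay above those of A15. Without replicate 1 of A15 these NdufB9 differences were 0.39 and 0.32 and did not pass (adjusted p = 0.0515 and 0.0901). The NdufA1 call in 065 BP-8 was lost without replicate 1 of A15 (0.28) or of 065 BP-8 (0.31), under median-ratio scaling (0.29) and under quantile normalization (0.30). Without replicate 2 of 065 BP-8, NdufS6 (0.36) and NdufV2 (0.36) passed as well. Without replicate 1 of 245 AMA-7, NdufA13 passed as lower in that strain (-0.62, adjusted p = 0.029).

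**Figure D5:**
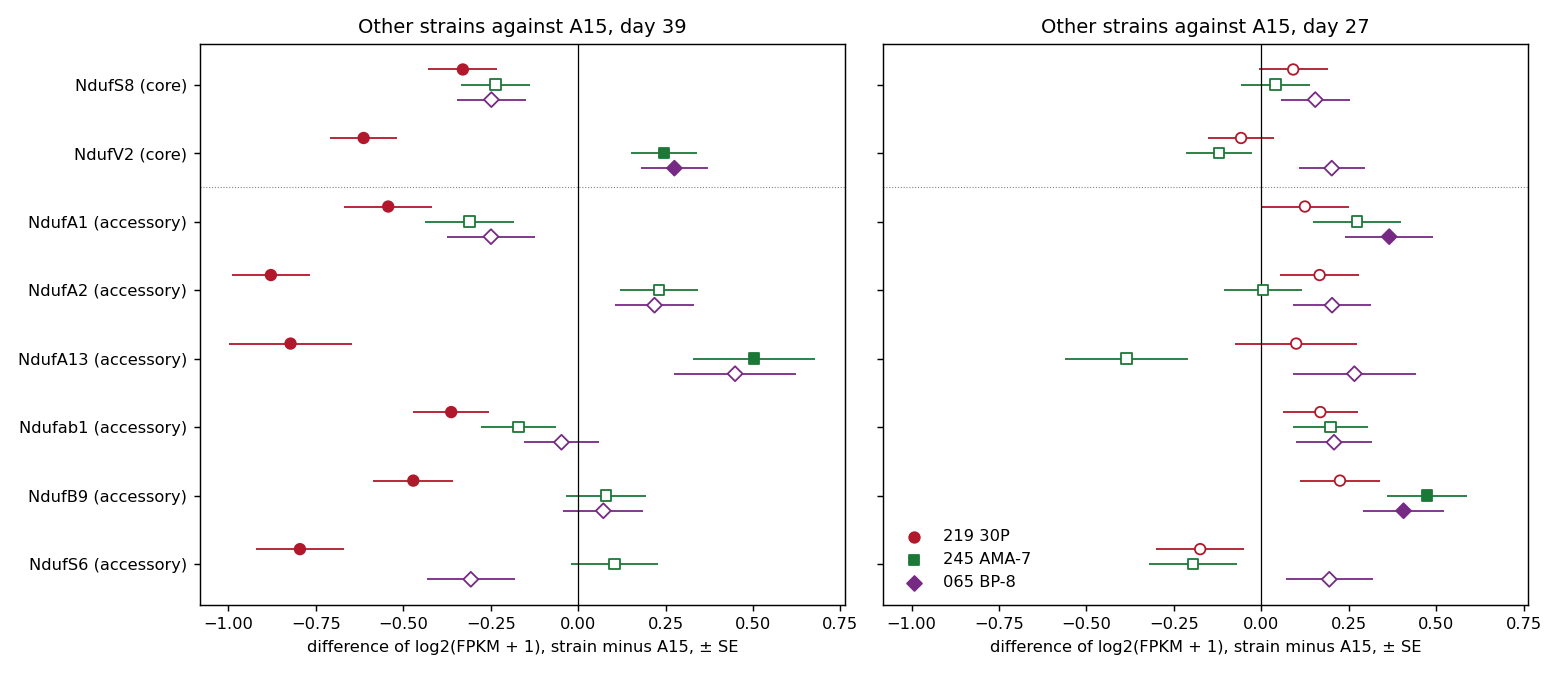
Difference of log2(FPKM + 1) between each other strain and A15 (x axis, with SE) for the 8 members (y axis), on day 39 in the left panel and on day 27 in the right panel. Filled symbols passed at an adjusted p under 0.05: all 8 for 219 30P on day 39, and none for 219 30P on day 27.

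Among the strains other than A15, 5 of 8 members differed on day 39 (F test in limma), against 67.9% of the genes tested, and 3 of 8 on day 27, against 61.6%. The 3 of day 27 were NdufA13, NdufV2 and NdufS6, which were higher in 065 BP-8 than in 245 AMA-7 by 0.65 ± 0.18, 0.32 ± 0.09 and 0.39 ± 0.13, where 47.7% of genes were called. Without replicate 1 of 245 AMA-7, replicate 2 of 245 AMA-7 or replicate 1 of 065 BP-8 on that day, 1 of the 3 passed the F test. The difference of 065 BP-8 from 245 AMA-7 was then lost for NdufV2 and NdufS6 without replicate 1 of 245 AMA-7 (0.30 and 0.38) or of 065 BP-8 (0.17 and 0.22), and for NdufA13 and NdufS6 without replicate 2 of 245 AMA-7 (0.41 and 0.40). The day 39 differences set 219 30P below the others. Against 219 30P, 245 AMA-7 was higher in NdufA13 (1.33 ± 0.18), NdufA2 (1.11 ± 0.11), NdufS6 (0.90 ± 0.13), NdufV2 (0.86 ± 0.09) and NdufB9 (0.55 ± 0.11), 5 of 8, where 55.7% of genes were called. In 065 BP-8, 6 of 8 were higher than in 219 30P, the same 5 and Ndufab1 (0.32 ± 0.11), where 45.5% were called. The Ndufab1 call was lost with each of the 3 other scalings (0.20 to 0.29, adjusted p = 0.0625 to 0.175) and without any single library of the groups compared (0.28 to 0.35). On day 27, NdufA13 was lower in 245 AMA-7 than in 219 30P (-0.49 ± 0.18, adjusted p = 0.0378), 1 of 8, where 47.4% were called. That call was lost with each of the 3 other scalings (-0.43 to -0.38, adjusted p = 0.0581 to 0.0842), under which NdufB9 passed as higher in 245 AMA-7 (0.30 to 0.33). It was also lost without replicate 2 of 245 AMA-7 (-0.25) or of 219 30P (-0.36) on that day. NdufS6 was higher in 065 BP-8 than in 219 30P on day 27 (0.37 ± 0.13, adjusted p = 0.0461), 1 of 8, where 26.8% were called. It did not pass with each library rescaled to the same sum (adjusted p = 0.0513), or when any of 12 single libraries was left out (adjusted p = 0.0548 to 0.367), with 0.20 and 0.21 without replicate 1 of 065 BP-8 or of 219 30P on that day. Between 065 BP-8 and 245 AMA-7 on day 39, NdufS6 alone passed among the 8 members (-0.41 ± 0.13, adjusted p = 0.0218), where 37.9% were called. This call was lost with median-ratio scaling (-0.33, adjusted p = 0.0546) and without any single library of the groups compared (-0.44 to -0.38, adjusted p = 0.0666 to 0.113).

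On day 39 the order of the strain means differed between members, except that 219 30P was lowest for all 8. NdufA1 and Ndufab1 ran from A15 to 065 BP-8, 245 AMA-7 and 219 30P, and no neighbours in that order differed beyond the test. NdufS8 was highest in A15, followed by 245 AMA-7 and 065 BP-8, again with no neighbours that passed. NdufA2, NdufA13 and NdufB9 were highest in 245 AMA-7, closely followed by 065 BP-8 and then A15, and the step between A15 and 219 30P was the 1 that passed. For NdufS6 the order was 245 AMA-7, A15, 065 BP-8 and 219 30P, and the last step passed (adjusted p = 0.00698). For NdufV2, 065 BP-8 and 245 AMA-7 led and did not differ beyond the test (adjusted p = 0.833), and the steps to A15 and to 219 30P passed.

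An F test for strain differences in the day effect passed for 7 of the 8 members, against 70.7% of the genes tested. NdufS8 did not pass (adjusted p = 0.0526), and it did without replicate 2 of 065 BP-8 or replicate 1 of 219 30P on day 27 (adjusted p = 0.0179 and 0.0419). For all 8 members 219 30P had a lower day effect than A15, with log2 differences of -0.42 ± 0.14 (NdufS8) to -1.05 ± 0.16 (NdufA2), where 38.0% of genes had a lower and 12.5% a higher day effect. These calls were lost for NdufS8 without replicate 2 of any of the 4 groups compared (-0.39 to -0.33), for Ndufab1 without replicate 2 of 219 30P on day 27 or of A15 on day 39 (-0.39 each), and for NdufS6 without replicate 2 of 219 30P on day 27 (-0.46). With median-ratio scaling 1 of the 8 passed, NdufA2, where 22.2% of all genes had a higher and 21% a lower day effect. That scaling moved the median of all genes in this contrast to -0.03, against -0.35 as deposited. With quantile normalization 4 of the 8 passed as lower, where 20.9% of all genes had a higher and 23% a lower day effect. With each library rescaled to the same sum all 8 passed as lower, where the shares were 12.6% and 35.3%. With either of the median-ratio and quantile scalings the test over all strains passed for 4 members, NdufV2, NdufA2, NdufA13 and NdufS6. The share of all genes passing that test under these scalings is not given here. The comparison of 245 AMA-7 with 219 30P did not depend on the scaling in this way: the day effect was higher in 245 AMA-7 for 4 of 8 members (NdufV2, NdufA2, NdufA13 and NdufS6), where 31.9% of genes were higher and 14.0% lower. With each of the 3 other scalings 4 members were higher, and with the median-ratio one 19.6% of all genes were higher and 21.8% lower. In 065 BP-8 the day effect exceeded that in 219 30P for NdufA13 (1.10 ± 0.25), NdufA2 (1.06 ± 0.16) and NdufV2 (0.63 ± 0.13), 3 of 8, where 30.0% of genes were called. Relative to 245 AMA-7 it was lower in 065 BP-8 for NdufS6 (-0.80 ± 0.18) and NdufA13 (-0.71 ± 0.25), 2 of 8, where 32.6% were called. The NdufA13 call there was lost with median-ratio (-0.61) and quantile (-0.61) scaling, with no filter on low values (adjusted p = 0.0509) and when any of 8 single libraries was left out (-0.78 to -0.47). Relative to A15, the day effect in 245 AMA-7 was higher for NdufA13 (0.89 ± 0.25) and lower for NdufA1 (-0.58 ± 0.18), 2 of 8, where 30.7% were called. With median-ratio and with quantile scaling NdufA1 did not pass (-0.51 and -0.49, adjusted p = 0.0542 and 0.0543), and NdufV2 passed as higher (0.44 and 0.41). Leaving out any of 4 single libraries ended the NdufA13 call (0.65 to 0.81), and any of 5 the NdufA1 call (-0.59 to -0.44). In 065 BP-8 it was lower than in A15 for NdufA1 (-0.61 ± 0.18), NdufS6 (-0.50 ± 0.18) and NdufS8 (-0.40 ± 0.14), 3 of 8, where 39.1% were called, and these 3 calls were lost with median-ratio and with quantile scaling (limma). They were also lost when any of 2 single libraries was left out for NdufA1 (-0.53 and -0.47), any of 7 for NdufS8 (-0.44 to -0.29) and any of 12 for NdufS6 (-0.53 to -0.33).

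The members did not share 1 pattern over the 8 group means of log2(FPKM + 1). Pearson's r between pairs of members, a description over 8 groups that share strains and days, ran from -0.71 (NdufA1 and Ndufab1) to 0.94 (NdufV2 and NdufA13). NdufS8 went with Ndufab1 (r = 0.93), and NdufA2 with NdufB9 (r = 0.83) and NdufS6 (r = 0.82). These pairs were not close among all genes tested, since the 100 genes most like NdufS8, Ndufab1 and NdufA2 reached r of at least 0.942, 0.953 and 0.84. Among genes with a symbol, the most alike to both NdufS8 and Ndufab1 was the heat shock gene hspD (r = 0.96 and 0.97), which ranked 33rd among all genes tested for each. For NdufV2 and NdufA13 it was the other of this pair, ranked 3rd and 4th, and for NdufB9 it was NdufA2, ranked 79th. For NdufA2 and NdufS6 it was QCR8 (r = 0.94, ranked 4th) and QCR6 (r = 0.88, ranked 40th), named for subunits of complex III. For NdufA1 it was Fet3, a ferroxidase of iron uptake (r = 0.82), which ranked 961st among all genes tested by likeness. Among the 100 genes most like each member, NdufV2, NdufA13 and NdufB9 had 1 other member each and the remaining 5 had 0.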

How the data were processed

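RNA from mycelium-colonised compost was sequenced in 16 libraries after standard Illumina preparation (per the labels' protocols). BWA, Bowtie and RSEM were used, per the submitters' processing notes. Which tool did what, in which version and on which genome build is not given in the sources used here. Deposited values were read as FPKM, an inference from the values: they have 2 decimals and their sum differs between libraries. How reads of neighbouring or overlapping genes were divided, and whether strand was used, is not known.

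Symbols came from the reference table of the assembly Agabi_varbisH97_2, by locus tag (9457 of 9520 genes found, and all 8 members). The table serves for names, gene lengths and gene order, and no coordinates are given. Values were set on the log2(FPKM + 1) scale and genes with a mean under 1 FPKM left out. A limma-trend model with a mean for each group (limma 3.58.1, R 4.3.3) had 8 residual and 4.16 prior degrees of freedom. Tables were read in Python 3.11.15 with numpy 2.4.6 and pandas 2.3.3, and plots made with matplotlib 3.10.9. The fit was tried on simulated data for the day change in A15 alone, with a small share of the genes raised and none lowered. The strain comparisons, the F tests and the differences of day effects were not simulated. No count-based test was run, and the depth behind a value is an upper estimate.

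The members, the lists and the tests were chosen with earlier results of these data known. All 8 members are named; other genes were named as the highest, lowest or core genes of a list, or as the most alike gene with a symbol. NUXM, NUZM and N19M were added to the complex I list after the files were seen, as were the alternative without Ndufab1 and the alternatives for differences between strains other than A15 and between day effects. The count adjusted over the list alone is not given for that reason. Alternatives were pseudocounts of 0.1 and 5, no filter and a filter at 5 FPKM, 3 scalings, a replicate block, and leaving out each library. Group numbers of replicates were not used as pairs: over 28 pairs of groups, the deviations of same-numbered replicates correlated between -0.27 and 0.17.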

Additional observations from a re-analysis of the deposited data

Results flagged for a closer look

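For 7 of the 8 members the change between the days differed between the 4 strains in an F test of the difference itself (limma, adjusted over all genes tested), as it did for 70.7% of those genes. The adjusted p was 0.000137 for NdufA2, 0.000455 for NdufA13, 0.000642 for NdufV2 and 0.00195 for NdufS6, and these 4 passed under each alternative run. It was 0.0152 for NdufB9, 0.0155 for NdufA1 and 0.0408 for Ndufab1. These 3 did not pass with median-ratio scaling (adjusted p = 0.232, 0.0963 and 0.374) or quantile normalization (adjusted p = 0.121, 0.0774 and 0.0581). Without replicate 1 of A15 on day 27 they did not pass either (adjusted p = 0.0509, 0.0797 and 0.0801). The NdufA1 call was also lost without replicate 2 of A15 on day 39 (adjusted p = 0.051), and the Ndufab1 call was lost in 12 of the 16 fits that left out 1 library (adjusted p = 0.058 to 0.123). No group has more than 2 libraries, so no test for a library far from its group was made.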

How the results depend on the processing

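Of 24 settings tried, 17 moved at least 1 of the 14 counts of members that passed by more than 1.5 times: median-ratio scaling, quantile normalization and 15 of the 16 fits that left out 1 library. The counts for 6 comparisons did not move that far under any of the 24. With median-ratio scaling 5 of 8 members were lower in 219 30P than in A15 on day 39, against 8 with the values as deposited. Under both median-ratio and quantile scaling the count for 065 BP-8 against A15 was 3 on day 39 and 1 on day 27, against 1 and 2 as deposited, and that for the strain difference in the day effect was 4, against 7. The change of accessory minus core members lay between 0.33 and 0.52 under the alternatives other than leaving out a single library. The 0.52 was without Ndufab1, an alternative chosen after seeing the data. Leaving out 1 library at a time gave 4 to 6 members changed between the days in A15 (6 with all libraries), 5 to 7 in 219 30P (6), 4 to 6 in 245 AMA-7 (6), 3 to 5 in 065 BP-8 (5) and 6 to 8 in the mean of the strains (8). Against A15 it gave 6 to 8 (8), 0 to 3 (2) and 0 to 3 (1) on day 39 for 219 30P, 245 AMA-7 and 065 BP-8, and 0 (0), 0 to 2 (1) and 0 to 4 (2) on day 27. For 065 BP-8 on day 27 the 4 was without its replicate 2 and the 0 without replicate 1 of A15. It gave 4 to 8 (7) for the strain difference in the day effect, with 4 without replicate 1 of A15 on day 27. Among the strains other than A15 it gave 5 to 6 (5) on day 39 and 1 to 3 (3) on day 27, and for accessory minus core 0.34 to 0.39. Where such a fit left a group with 1 library, its spread was taken from the other groups. Of 3632 single values under alternatives, 3361 kept their direction and side of the threshold, 211 no longer passed, 40 newly passed and 20 changed sign, none of them a value that passed in either setting. Sign changes with median-ratio scaling were -0.14 for NdufV2 and -0.049 for NdufB9 (day change in 245 AMA-7), -0.052, -0.017 and -0.041 for NdufS8, NdufA1 and NdufA13 (219 30P against A15, day 27), -0.023 and -0.058 for NdufS8 and NdufA2 (245 AMA-7 against A15, day 27), and 0.048 for Ndufab1 (065 BP-8 against A15, day 39). With quantile normalization they were -0.025 for NdufA13 and -0.015 for NdufA2 in the same day 27 comparisons. Leaving out single libraries gave ranges across 0 of -0.066 to 0.0084 for NdufS8 (day change in A15), -0.27 to 0.020 for NdufA13 and -0.31 to 0.027 for NdufS6 (day change in 065 BP-8), -0.036 to 0.23 for NdufA13 (219 30P against A15, day 27), -0.039 to 0.12 for NdufS8 and -0.12 to 0.13 for NdufA2 (245 AMA-7 against A15, day 27), and -0.19 to 0.094 for Ndufab1 (065 BP-8 against A15, day 39). The cause of these shifts was not tested. Replicate numbers were not used as pairs. Over 28 pairs of groups, the deviations of same-numbered replicates from their group means correlated between -0.27 and 0.17, which does not settle whether the numbers pair samples. Of the calls given, a replicate block ended NdufS6 in 065 BP-8 against 219 30P on day 27 (adjusted p = 0.0577 in limma), NdufS6 in the day effect of 065 BP-8 minus A15 (0.051) and NdufA13 in that of 065 BP-8 minus 245 AMA-7 (0.0571). With the block NdufA1 passed in 245 AMA-7 against A15 on day 39 (-0.31, adjusted p = 0.026, against 0.0543 without it), and the 14 counts stayed within 1.5 times. With 2 libraries per group, the size of a difference near the threshold varied with the SE of the member. On day 39, NdufV2 passed at 0.25 ± 0.09 in 245 AMA-7 against A15. NdufA13 did not pass at 0.45 ± 0.18 in 065 BP-8 against A15 (limma, adjusted p = 0.053). The read depth behind the values is an estimate, and the effective lengths used for these short genes are not known.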

Other observations

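In the gene order of the reference table, NdufS8 and NdufA13 are separated by 1 gene, AGABI2DRAFT_181282. That gene averaged 27.9, 32.8, 32.2 and 26.3 FPKM on day 39 in 219 30P, 245 AMA-7, 065 BP-8 and A15, against 33.4, 29.4, 35.8 and 31.0 FPKM on day 27. NdufA1 and NdufA8, another accessory subunit, are likewise separated by 1 gene, AGABI2DRAFT_211723. It averaged 8.25, 10.4, 8.37 and 8.69 FPKM on day 39, against 4.59, 3.45, 4.96 and 2.57 FPKM on day 27, and was higher on day 39 in all 4 strains, as NdufA1 was. NdufA8 averaged 62.8, 86.9, 64.5 and 65.0 FPKM on day 39, against 71.7, 72.7, 62.6 and 53.25 FPKM on day 27, and was lower on day 39 in 219 30P. Whether the authors' counting used strand is not given in the sources used here, and the part of neighbouring transcripts in these values was not tested.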
